A study of Mus musculus with 2 samples.

Results

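Retained-intron transcripts are annotated RNAs of a gene that keep sequence which other transcripts of the same gene splice out. The transcripts described here carry that annotation and reached 2 TPM (a transcript's abundance per length, scaled to a fixed sum in each library) or more in both libraries of the series. Those of the genes named Srsf, Tra2 or Hnrnp, 42 transcripts of 18 genes at that level, were left out by the rule. This left 4370 of 21848 retained-intron transcripts, from 2838 host genes, among 141767 transcripts in all. The level itself chose the members, so levels and shares are given as descriptions, and tests are given for the difference between the libraries alone.

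The series holds 1 group of 2 libraries of total RNA reduced for ribosomal RNA, called biological replicates 1 and 2 in the labels. The RNA was taken at 14 days of age from female B6CASTF1/J mice, a hybrid that carries 1 genome of C57BL/6J and 1 of CAST/EiJ, and the tissue was the cerebral cortex of the left side. The labels name no treatment and no engineered allele. Each library started from 300 ng of RNA, and how many mice it holds is not clear from the labels, so the spread between the libraries may be technical or between animals.

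An intron is normally removed by the spliceosome, which recognises a donor site beginning with GT and an acceptor site ending with AG. RNA that keeps an intron can be held in the nucleus, spliced later, or destroyed by nonsense-mediated decay when the intron brings a stop codon into the reading frame. In the brain some such RNAs are known to be stored in the nucleus and spliced on activity. Annotated retained-intron transcripts also include partial copies that begin or end inside an intron, which share most of their bases with the coding messenger RNA.

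The introns that members held whole were mostly short and carried a stop codon in frame. The following 12 lie between coding exons and are shown because they belong to the most abundant members, to members with most of their gene's TPM, or to a member with a rare donor type. Those of Ncl, Rps20, Elp5, Trim28 and Mapk11 were added after values were seen, as members high in both quantifications or with that donor. All were read from the GENCODE M21 transcript sequences of mm10, the C57BL/6J reference, and not from the reads of these mice. Capitals mark the first 6 bases, the last 2 bases and the first in-frame stop codon, which lies within the first 6 bases in Ncl, Mdp1 and BC003965.
Ncl: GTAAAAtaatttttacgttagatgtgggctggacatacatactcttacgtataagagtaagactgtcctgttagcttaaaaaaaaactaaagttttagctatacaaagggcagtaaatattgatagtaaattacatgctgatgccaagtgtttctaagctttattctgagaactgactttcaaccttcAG
Rps20: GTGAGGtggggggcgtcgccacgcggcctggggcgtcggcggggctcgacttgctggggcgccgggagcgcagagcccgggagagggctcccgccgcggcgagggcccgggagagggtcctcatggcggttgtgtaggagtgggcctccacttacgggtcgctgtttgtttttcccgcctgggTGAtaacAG
Elp5: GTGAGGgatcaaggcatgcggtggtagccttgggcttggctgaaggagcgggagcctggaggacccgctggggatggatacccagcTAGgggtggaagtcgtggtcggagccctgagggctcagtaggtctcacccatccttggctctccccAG
Trim28: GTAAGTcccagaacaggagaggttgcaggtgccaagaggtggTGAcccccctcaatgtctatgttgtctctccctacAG
Mrps26: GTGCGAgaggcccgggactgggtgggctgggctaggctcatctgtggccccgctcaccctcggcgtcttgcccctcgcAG
Cox6a1: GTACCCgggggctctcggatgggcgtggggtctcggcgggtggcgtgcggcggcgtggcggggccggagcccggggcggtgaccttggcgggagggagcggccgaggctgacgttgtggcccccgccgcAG
Ppia: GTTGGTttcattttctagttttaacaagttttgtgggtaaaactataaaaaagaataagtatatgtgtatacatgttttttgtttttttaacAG
Rps25: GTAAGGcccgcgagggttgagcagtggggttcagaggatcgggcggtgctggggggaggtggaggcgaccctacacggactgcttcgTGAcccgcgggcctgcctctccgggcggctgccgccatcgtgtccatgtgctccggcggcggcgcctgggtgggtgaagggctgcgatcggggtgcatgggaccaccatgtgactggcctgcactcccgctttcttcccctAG
Atp5k: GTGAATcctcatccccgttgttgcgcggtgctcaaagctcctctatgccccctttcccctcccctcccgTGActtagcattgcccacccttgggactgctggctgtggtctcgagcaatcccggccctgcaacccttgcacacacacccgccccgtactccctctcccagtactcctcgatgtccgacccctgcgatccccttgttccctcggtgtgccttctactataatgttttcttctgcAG
Mdp1: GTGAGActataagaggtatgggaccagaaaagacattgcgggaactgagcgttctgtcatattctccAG
BC003965: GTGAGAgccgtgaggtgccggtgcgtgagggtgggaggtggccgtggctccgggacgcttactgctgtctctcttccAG
Mapk11: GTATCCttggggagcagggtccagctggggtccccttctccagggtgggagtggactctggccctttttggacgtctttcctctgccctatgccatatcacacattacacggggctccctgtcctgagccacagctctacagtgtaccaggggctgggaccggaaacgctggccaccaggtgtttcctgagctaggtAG

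The Ncl intron is intron 10 of 13 (chr1:86352320-86352509, minus strand, 190 bases, 32.6% GC), and its stop codon begins at its base 2. Ncl encodes nucleolin, a nucleolar RNA-binding protein. In Rps20, a ribosomal protein gene, intron 1 of 3 (chr4:3835292-3835483, minus strand, 192 bases, 71.9% GC) has its first in-frame stop at base 184, near the acceptor. The Elp5 intron (2 of 8, chr11:69980060-69980213, minus strand, 154 bases) reaches a stop at base 87, and the Trim28 intron (15 of 16, chr7:13030376-13030454, plus strand, 79 bases) at base 43. Stops thus fell anywhere from the donor to the last bases of the intron.

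Mrps26, which encodes a mitochondrial ribosomal protein, holds intron 2 of 3 (chr2:130564228-130564307, plus strand, 80 bases). It had no in-frame stop, nor did Cox6a1 intron 1 of 2 (chr5:115348708-115348838, minus strand, 131 bases), Ppia intron 2 of 4 (chr11:6418132-6418225, plus strand, 94 bases) or Mapk11 intron 8 of 11 (chr15:89145176-89145374, minus strand, 199 bases). None of these 4 lengths is a multiple of 3, so each intron would shift the reading frame behind it. The others shown are Rps25 intron 1 of 4 (chr9:44407758-44407987, plus strand, 230 bases) and Atp5k intron 1 of 3 (chr5:108434081-108434325, minus strand, 245 bases). Mdp1 intron 2 of 5 (chr14:55660099-55660167, minus strand, 69 bases) and BC003965 intron 1 of 1 (chr17:25184641-25184719, plus strand, 79 bases) are the 2 shorter introns with a stop at base 2.

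Members had a median length of 852 nucleotides (324 to 19300), and 279 had a single exon. An intron of another transcript of the gene was held whole by 1626 members (37.2%), of which 1196 held 1 and 430 held 2 or more, at most 10. The other 2744 held none, and in 2634 of these the transcript began or ended inside an intron (1412 at the start, 1521 at the end, 299 at both). The typical member was thus a partial transcript that runs from an intron into exons or the reverse. The median member had 36.0% of its bases outside the exons of the gene's other transcripts. Exons of 704 members (16.1%) overlapped an exon of another gene, on the same strand in 260 members and on the opposite strand in 486. With a gene on the same strand, counts can include its reads whether or not strand was used in counting. With one on the opposite strand they can where strand was not used, which no label or header states.

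Together the members held 2148 different whole introns of 1220 genes. Their median length was 233 bases, against 1298 bases for 41718 other introns of the protein-coding transcripts of the host genes, which include introns in untranslated regions. Introns under 100 bases made up 21.1% of those held and 5.92% of the others, and introns over 1000 bases 13.3% and 57.0%. Introns held only by retained-intron transcripts under the level were also short, with a median of 276 bases, so short length was not particular to members. In both sets an intron counted as held only where it lay inside a single exon of the transcript, and so was shorter than the transcript. Members with a whole intron had a median length of 1548 nucleotides. The contrast with the other introns is therefore partly set by this definition. The search for splice sites used the transcript strand alone. The bases GT and AG stood at the ends of 2099 held introns (97.7%), GTAAGT at the donor of 8.52% and GTGAGT at that of 15.4%, against 10.01% and 14.6% of the introns held only under the level. Of the 1848 held introns within coding sequence, 1622 (87.8%) had a stop codon in frame. The share was similar among introns held only under the level (4810 of 5424, 88.7%), so it was not particular to members.

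**Figure D1:**
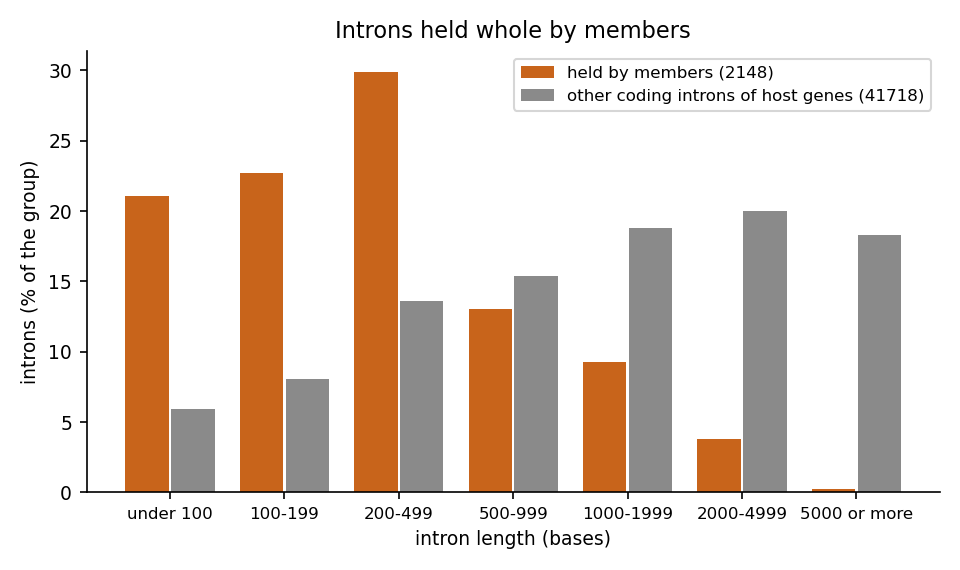
Bars give the percentage of introns (vertical axis) in each length class in bases (horizontal axis). They cover the 2148 introns held whole by members and the 41718 other introns of the protein-coding transcripts of their host genes. Held introns are most frequent at 200 to 499 bases (29.9%), the others from 2000 bases to under 5000 bases (20.0%). By definition a held intron is shorter than the member that holds it, which does not limit the other introns.

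The members took 4.78% of all TPM in replicate 1 and 5.24% in replicate 2, and 1.95% and 2.25% of the estimated counts. Their median TPM was 4.17 and 5.29. These values come from the quantification that chose the members. The other one, called the first tables below, gave 1.78% and 2.06% of TPM and 1.55% and 1.86% of counts. Its median TPM for the same members was 2.04 and 2.59. In both libraries 704 reached 10 TPM and 58 reached 100 TPM. Levels are therefore concentrated near the threshold, with a small abundant tail. The members nearest above it were Fiz1 (2.00 and 2.98 TPM in replicates 1 and 2), Obsl1 (2.00 and 4.64 TPM) and Tpr (2.40 and 2.00 TPM). Just below it lay Tcp1 (1.999 and 2.64 TPM), Zmynd11 (1.998 and 8.01 TPM) and Fmr1, whose lower value rounds to 2.00 TPM.

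The second tables, which carry the rule, were quantified from the reads, and the first tables from a transcriptome alignment. Among the most abundant members, Cox6a1, a subunit of cytochrome c oxidase, had 652 and 550 TPM in the second tables and 4.97 and 3.16 TPM in the first. The tables differed far more than the libraries. Ppia, the proline isomerase cyclophilin A, had 534 and 551 TPM against 0.760 and 1.37 TPM. Rps25, a protein of the small ribosomal subunit, had 334 and 317 TPM against 1.00 and 1.05 TPM. For these hosts the sequences shown above belong to transcripts whose abundance rests on 1 quantification.

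Of all members, 2082 (47.6%) also reached 2 TPM in both libraries of the first tables, and 417 were at least 10-fold higher in the second tables. Protein-coding transcripts at the same level met that level in the first tables in 75.2% of cases. The authors deposited interval bounds for each TPM of the first tables. Both second-table values lay inside them for 460 members, above them for 3200 and below them for 73. The median log2 ratio of the second to the first tables was 0.81 for members and 0.66 for all transcripts at the same level, and choosing by the second tables favours values that are high there.

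**Figure D2:**
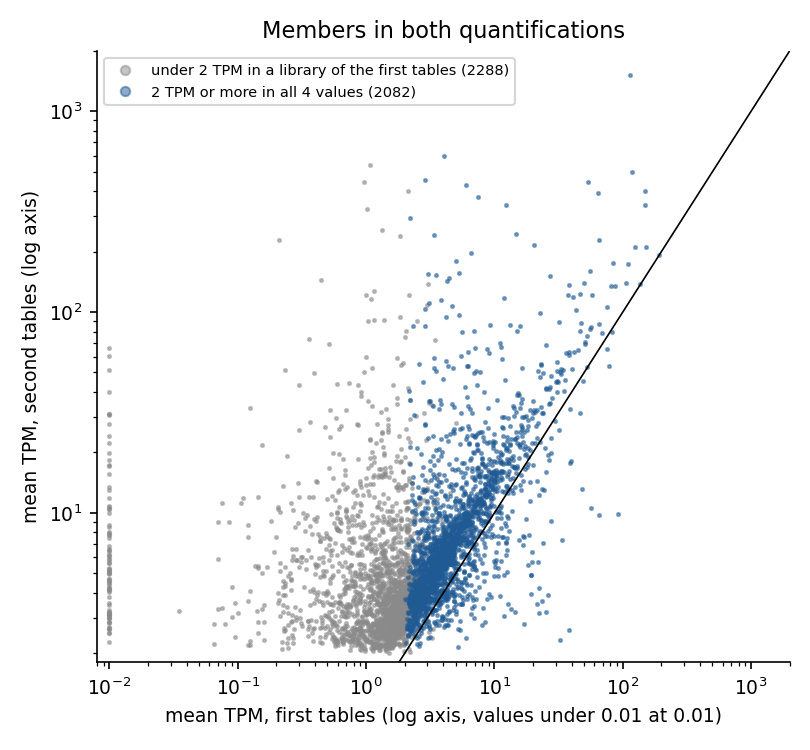
Each point is 1 of the 4370 members, with its mean TPM over both libraries in the first tables (horizontal, log axis) and in the second tables (vertical, log axis), and the line marks equal values. The 2082 members at 2 TPM or more in all 4 values lie nearer the line, and the other 2288 spread to the left of it.

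Members with the highest lowest value over both libraries and both quantifications were picked after their values were seen. Prkcb, which encodes protein kinase C beta, led them with 204 and 182 TPM in the second tables and 206 and 178 TPM in the first (ENSMUST00000206495.1, chr7:122633448-122634402, 955 nucleotides). It begins inside an intron and has 31.1% of its bases outside other exons. Rps16, a ribosomal protein gene, had 389 and 416 TPM in the second tables and 148 and 149 TPM in the first. Ctsb, the lysosomal protease cathepsin B, had 177 and 171 TPM against 115 and 106 TPM. Atp6v1d, a subunit of the proton pump of acidic vesicles, had 182 and 170 TPM against 87.2 and 80.9 TPM. These 4 hold no whole intron, and their bases outside other exons ran from 11.2% to 31.1%.

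Among members that hold a whole intron and have at least 10% of their bases outside other exons, 15 were picked in the same way. The highest was the Rps20 transcript ENSMUST00000103009.4 with 194 and 228 TPM in the second tables and 121 and 128 TPM in the first. Ncl followed with 72.7 and 68.7 TPM against 52.6 and 49.4 TPM. Stk25, which encodes a serine/threonine kinase, had 62.5 and 67.2 TPM against 43.0 and 46.1 TPM. Both quantifications placed these transcripts in the same order. Snrnp70, the 70 kDa protein of the U1 small nuclear ribonucleoprotein, which recognises donor sites, had 35.2 and 54.5 TPM against 23.6 and 37.0 TPM. Gria2, the AMPA receptor subunit GluA2, had 29.4 and 40.5 TPM against 22.7 and 30.6 TPM. Arglu1, a splicing cofactor, had 28.7 and 38.4 TPM against 19.5 and 26.4 TPM, and Abcc5, a membrane transporter, 26.5 and 37.3 TPM against 17.4 and 24.3 TPM. Replicate 2 was above replicate 1 in these last 4 members in both quantifications. Ncl and Clptm1, also among the 15, went the other way in both. Their log2 ratios were -0.21 and -0.17 in the second tables and -0.19 and -0.13 in the first.

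**Figure D3:**
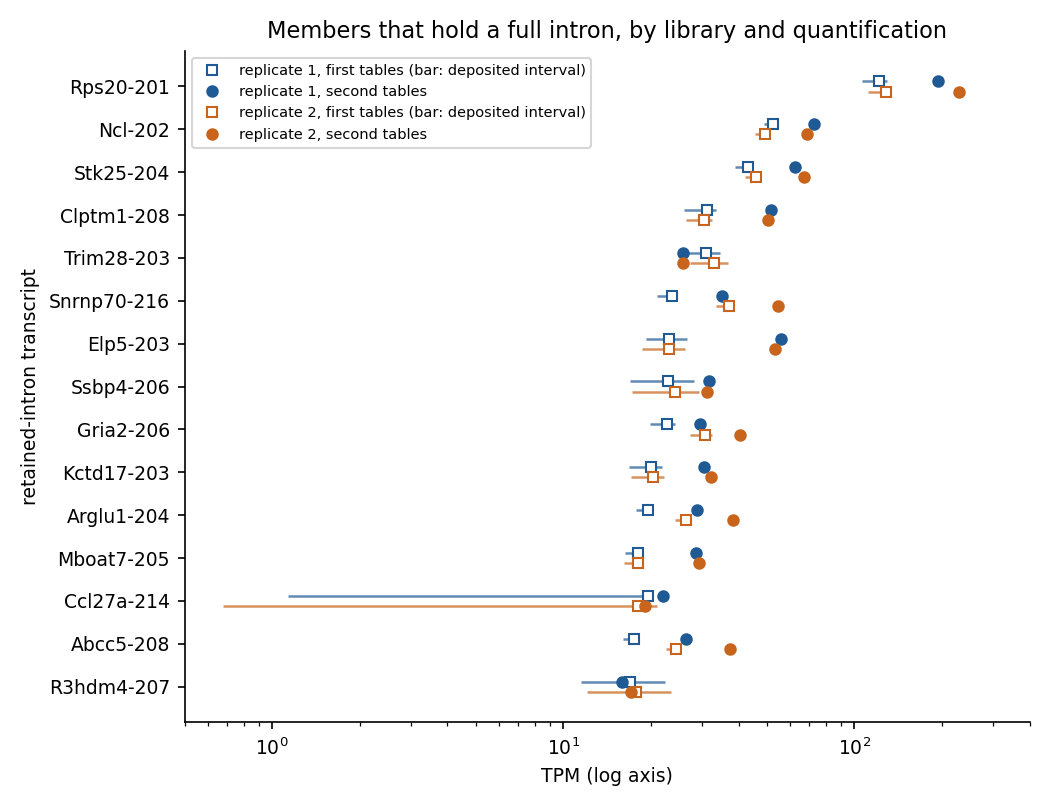
TPM (horizontal, log axis) of the 15 members that hold a whole intron and rank highest over all 4 values, with replicate 1 in blue and replicate 2 in orange, filled circles for the second tables, open squares for the first and bars for the deposited interval of the first. Snrnp70, Gria2, Arglu1 and Abcc5 show replicate 2 to the right in both tables, and Ncl and Clptm1 show it slightly to the left. The interval of Ccl27a reaches far to the left.

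A member's share of the summed TPM of its gene had a median of 8.32% in replicate 1 and 9.27% in replicate 2, with quartiles of 3.77% and 16.7% in replicate 1 and 4.51% and 17.3% in replicate 2. The first tables gave medians of 5.17% and 6.19%. In both libraries 1121 members stayed under 5% and 86 exceeded 50%. The first tables put 68 members over 50%, and 37 exceeded it in both tables. Most members were therefore minor products of their gene, and few took most of its TPM.

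Of the 10 highest shares among protein-coding hosts at 10 TPM or more, 5 also lay above 50% in the first tables. Mrps26 (ENSMUST00000046149.8), whose intron is shown above, held 91.9% and 92.4% of its gene's TPM, and 91.4% and 92.1% in the first tables. Mrpl57, another mitochondrial ribosomal protein, gave 93.2% and 92.9% against 92.5% and 91.8%. A2ml1, a protease inhibitor of the alpha-2-macroglobulin family, gave 98.3% and 98.5%, and 100% in both libraries of the first tables. Cox7b, a cytochrome c oxidase subunit, gave 99.3% and 99.4% against 58.2% and 60.3%, and BC003965 gave 100% against 74.7% and 85.2%. In the other 5 the tables disagreed. Rps27 gave 96.2% and 96.5% against 0.700% and 1.14%, Atp5k 86.8% and 95.5% against 4.46% and 4.10%, and Rps25 92.9% and 92.7% against 0.339% and 0.388%. Mdp1 gave 98.7% and 94.3% against 37.3% and 33.4%, and Gstp2 was listed at 0 in the first tables.

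For each transcript the rounded estimated counts of the libraries were compared by an exact binomial test, two-sided, with Benjamini-Hochberg adjustment over all 58224 transcripts tested. With 1 group of 2 libraries it takes counting error alone and compares these libraries, not conditions. Of 4251 members tested, 802 (18.9%) were higher in replicate 2 and 324 (7.62%) were lower. Among all transcripts tested, 17.2% were higher and 19.9% lower, and among protein-coding transcripts at the same level 11.96% and 29.1%. The share of members higher was thus close to the background, and the share lower was under it. At 2-fold or more, 39 were higher and 41 lower. Of the 1126 calls 71.2% were higher, against 82.6% with scaling to total counts (1066 higher, 224 lower) and 83.8% with scaling to spike-ins (1106 and 214). The median log2 ratio of replicate 2 to replicate 1 was 0.11 for members, 0.01 for all transcripts and -0.07 for protein-coding transcripts at the same level, the last turning to 0.02 with total counts and 0.03 with spike-ins, which moved the median of all transcripts to 0.09 and 0.10. Other retained-intron transcripts had larger medians, 0.22 for those under the level (1572 higher and 545 lower of 7884) and 0.27 for those of the Srsf, Tra2 and Hnrnp genes. Members at 5 TPM or more had a median of 0.025, and of 1637 tested 295 were higher and 212 lower.

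The first tables had 925 members higher and 295 lower by the same test, beside 17.3% and 19.5% of all transcripts. The same direction was called in both quantifications for 562 higher and 116 lower members, and opposite directions for 26. When the authors' posterior SD of each count was added to counting error in the first tables (a z test added after the data were seen, Benjamini-Hochberg adjusted), 189 members were higher and 14 lower of 4125, where 1.27% and 2.52% of all transcripts were called (3.79% together). With an assumed dispersion of 0.01 in edgeR's exact test, 250 were higher and 115 lower, beside 9.73% and 9.02% of all transcripts. At 0.04, 28 were higher and 33 lower, beside 6.17% and 6.07%. The excess of higher over lower calls was thus not seen at the larger assumed dispersion or at 2-fold.

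The difference grew with the intronic content of the member. Members with under 10% of their bases outside other exons had a median log2 ratio of 0.01 in both quantifications. The median was 0.05 at 10 to 25%, 0.10 at 25 to 50%, 0.16 at 50 to 75% and 0.23 at 75 to 100%. In the first tables these 4 medians were 0.09, 0.17, 0.19 and 0.26. Calls of lower members fell from 84 of 527 in the first class to 8 of 465 in the last, while calls of higher members went from 94 to 125. Over 4370 members, Spearman's rho between the percentage outside exons and the log2 ratio was 0.18 in the second and 0.16 in the first tables, a description across transcripts that share both libraries and, often, a host gene. The ratio also rose with length, from a median of 0.02 in the shortest members (324 to 656 nucleotides) to 0.21 in the longest (2130 to 19300). Level fell as intronic content grew, from a median of 6.03 TPM in the first class to 3.02 TPM in the last in replicate 1. Members at 5 TPM or more had a median log2 ratio of 0.025. The separate parts of content, length and level were not tested.

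**Figure D4:**
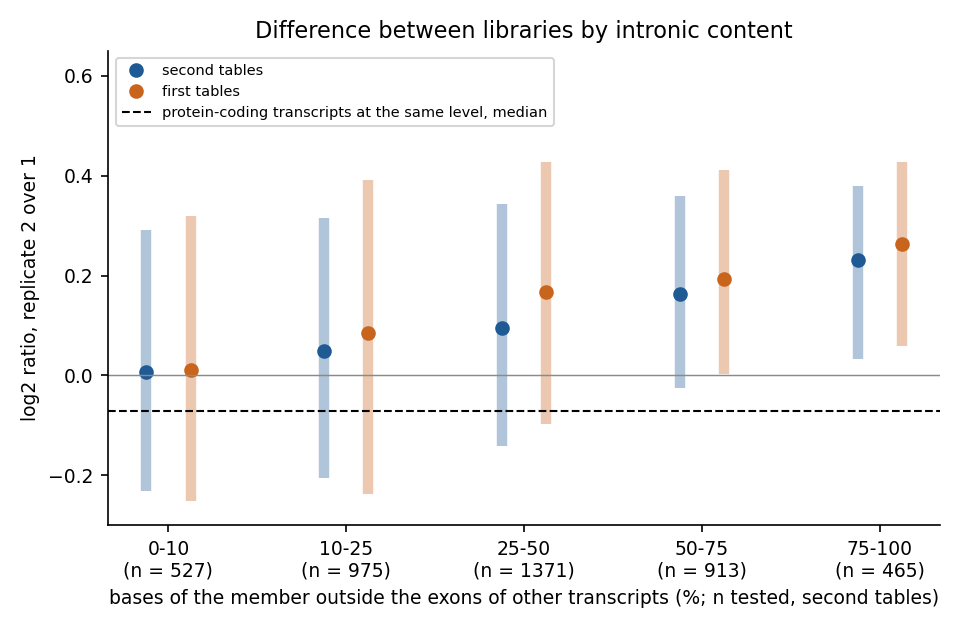
Median log2 ratio of replicate 2 to replicate 1 (vertical, circles, with bars from the first to the third quartile) for members grouped by the percentage of their bases outside other exons (horizontal), in the second tables (blue) and the first (orange). The medians rise from 0.01 to 0.23 and 0.26, and the dashed line is the median of protein-coding transcripts at the same level, -0.07.

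Among single members, Psd and Gpi1 rose in replicate 2 while the coding counts of their genes had ratios of 0.02 or below. The members named here were picked, after their values were seen, from the largest ratios among those called with counting and assignment error. Psd, which encodes an exchange factor for the small GTPase ARF6, rose from 2.97 to 14.2 TPM (ENSMUST00000224094.1, chr19:46321096-46325586, 2 whole introns), and from 1.24 to 7.79 TPM in the first tables. Its log2 ratio was 2.04 (counting SE 0.12, adjusted p = 4.09e-91 by the exact binomial test), and that of its gene's coding counts was 0.02.

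Gpi1, the glycolytic enzyme glucose-6-phosphate isomerase, had a member that ends inside an intron and rose from 21.9 to 58.9 TPM (18.4 to 51.2 TPM in the first tables). Its log2 ratio was 1.27 (counting SE 0.08, adjusted p = 4.57e-67 by the exact binomial test), and that of the coding counts was -0.31. Exons of this member overlap the antisense gene Gm26762, whose reads can be included if strand was not used in counting. Idh3g, a subunit of mitochondrial isocitrate dehydrogenase, rose from 7.73 to 14.1 TPM and from 1.60 to 5.11 TPM, with 3 whole introns. The same selection named Srrm3, Acin1, Arhgap33, Zfp57, Zmym3 and Ndufb2, all under 15.1 TPM. Of these, Srrm3, a neuronal splicing regulator, rose from 3.03 to 7.48 TPM and Acin1, an RNA-binding protein of the exon junction, from 3.25 to 7.19 TPM. The Acin1 member likewise overlaps an antisense gene, Gm17606.

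Of the 14 members lower with counting and assignment error, those with the largest ratios were picked in the same way. Nav3, a cytoskeletal guidance protein, fell from 27.1 to 6.87 TPM and from 13.6 to 1.37 TPM in the first tables (log2 ratio -1.44, counting SE 0.38, adjusted p = 3.43e-09 by the exact binomial test). Ppp1r37, a regulator of protein phosphatase 1, fell from 15.1 to 9.97 TPM and from 15.3 to 10.3 TPM. Il17ra, the interleukin 17 receptor, fell from 4.67 to 3.13 TPM and from 3.30 to 2.24 TPM. Prkcb fell by 0.30 on the log2 scale, near the -0.39 of its coding counts, so there the member moved with its gene. Wdr83os, Rab8a and Chchd10 were lower too, of which the Wdr83os and Chchd10 members overlap the antisense genes Wdr83 and Gm867.

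The largest ratios called in the second tables with the same sign in the first were often much smaller in the first. Atp5o, a subunit of the mitochondrial ATP synthase, went from 62.4 to 3.77 TPM in the second tables and from 19.5 to 12.1 TPM in the first. Mtch1, a mitochondrial outer membrane protein, went from 18.9 to 2.20 TPM against 59.8 and 53.7 TPM. Ddb1, a DNA damage binding protein, went from 2.40 to 24.6 TPM against 3.97 and 5.25 TPM, and Cadm3, a neuronal adhesion molecule, from 3.75 to 25.1 TPM against 14.1 and 19.5 TPM. Log2 ratios for these 4 were -2.86, -2.72, 2.25 and 2.08 in the second tables and -0.70, -0.25, 0.24 and 0.34 in the first. Fcho1, Rpl41 and the Ccl27a transcript ENSMUST00000133572.7 were also higher, and Ppm1h, C1qbp, Fasn and Ccny lower. The plotted Ccl27a transcript, ENSMUST00000144090.7, was lower (log2 ratio -0.32, adjusted p = 0.0327 by the exact binomial test). None of the members so chosen but Psd passed the test with assignment error.

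The share of a member in its gene's counts, which does not depend on the scaling between libraries, was compared with Fisher's exact test (Benjamini-Hochberg over 49796 transcripts). Of 4240 members tested, the share rose in 896 and fell in 277, where it rose in 21.9% and fell in 19.7% of all transcripts tested. Both quantifications gave the rise for 620 and the fall for 95 members. A member's ratio lay above that of its gene's coding counts for 2942 of 4304 members (68.4%), against 46236 of 85710 for all transcripts and 10151 of 15557 for retained-intron transcripts under the level. Both wider sets include transcripts with too few counts to be tested. A transcript without counts has a ratio of 0 and so lies above any negative coding ratio. These figures are therefore not a like comparison for the members. Large changes of TPM share were those of Sssca1 (25.2% to 55.9%), Lyrm2 (62.3% to 91.7%) and Cd83 (53.2% to 80.6%) upward, and of Wdr83os (47.5% to 21.3%), Josd2 (44.1% to 18.8%) and Rab8a (55.6% to 33.0%) downward. In the first tables Cd83 went from 67.8% to 85.8% and Wdr83os from 73.5% to 61.6%, but Sssca1 only from 5.16% to 7.78%, Lyrm2 from 18.4% to 22.8% and Josd2 from 3.88% to 3.91%. Rab8a went from 70.6% to 59.1%.

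Splicing and RNA-binding factors outside the excluded families had 142 members in 63 genes. Of 136 tested, 43 (31.6%) were higher and 4 (2.94%) lower in replicate 2, beside 17.2% and 19.9% of all transcripts. The median log2 ratio was 0.26 against 0.01 for all transcripts. Snrnp70 rose from 35.2 to 54.5 TPM (log2 ratio 0.50, counting SE 0.04, adjusted p = 1.23e-36 by the exact binomial test). One Pcbp2 member went the other way in the second tables, from 61.4 to 38.3 TPM, and stood at 0.790 TPM and 0 in the first.

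The CLK, DYRK and SRPK kinases, which phosphorylate splicing factors, and the cyclins L had 21 members in 7 genes. Of 20 tested, 8 (40.0%) were higher and none lower, beside 17.2% and 19.9% of all transcripts, with a median of 0.26. Clk1 (ENSMUST00000129577.7, 3 whole introns) went from 8.20 to 15.03 TPM and from 5.21 to 9.70 TPM in the first tables. Clk4 went from 9.68 to 20.2 TPM and from 6.80 to 12.1 TPM, and Ccnl2 from 13.7 to 18.8 TPM and from 9.30 to 13.4 TPM. Srpk1 had 12.3 and 8.89 TPM, and the opposite order in the first tables (3.86 and 7.25 TPM, log2 ratio 0.62, adjusted p = 0.0146 by the exact binomial test). The ratio of most of these was below that of their genes: only 6 of 21 members lay above the coding ratio of their own gene. The median of that coding ratio over the 21 members was 0.46. The Clk1 share was 24.0% and 27.1% (adjusted p = 1.0 by Fisher's exact test).

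Synaptic proteins had 86 members, with 23 higher and 6 lower of 85 tested and a median of 0.21. Gria2 was one of them, with a log2 ratio of 0.33 (counting SE 0.05, adjusted p = 3.41e-11 by the exact binomial test) and a coding ratio of -0.01. Dnm1, the synaptic vesicle scission GTPase, had 122.9 and 119 TPM (log2 ratio -0.18, adjusted p = 0.00823 by the exact binomial test), and the first tables gave 35.6 and 39.4 TPM (log2 ratio 0.05, adjusted p = 0.714 by the same exact test). Ion channels, pumps and transporters had 155 members, with 40 higher and 7 lower of 154 tested and a median of 0.17. Cytoskeleton and motor genes had 16 higher and 5 lower of 85, and chaperones 9 and 4 of 34. More higher than lower calls was the pattern of members as a whole (18.9% and 7.62%), and the 18.8% higher of cytoskeleton and motor genes lay near the 17.2% of all transcripts.

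Among housekeeping lists, ribosomal proteins and translation factors had 12 higher and 16 lower of 104 tested, with a median of 0.05, which turned to 18 and 12 with total counts, 19 and 11 with spike-ins and 14 and 8 in the first tables. Genes of the respiratory chain, mitochondria and glycolysis had 15 and 13 of 116, with a median of 0.10, and 18 and 7 with either of those scalings. Ubiquitin and proteasome genes had 21 and 8 of 126, chromatin and transcription genes 19 and 9 of 130, and small nucleolar RNA hosts 5 and 2 of 29. In the order named, 11.5%, 12.9%, 16.7%, 14.6% and 17.2% were higher, near or under the 17.2% of all transcripts. Those lower were 15.4%, 11.2%, 6.35%, 6.92% and 6.90%, under the 19.9% of all transcripts. Members in no host list had 593 higher (18.3%) and 250 lower (7.72%) of 3239, with a median of 0.10. The lists were not tested against each other. Myelin genes had only 2 members, and 1 was called lower: Mag, which encodes a myelin adhesion protein, fell from 10.2 to 6.70 TPM (log2 ratio -0.70, adjusted p = 1.14e-08 by the exact binomial test), with a coding ratio of -0.91, and had 1.28 and 1.00 TPM in the first tables (adjusted p = 0.242 by the same exact test).

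**Figure D5:**
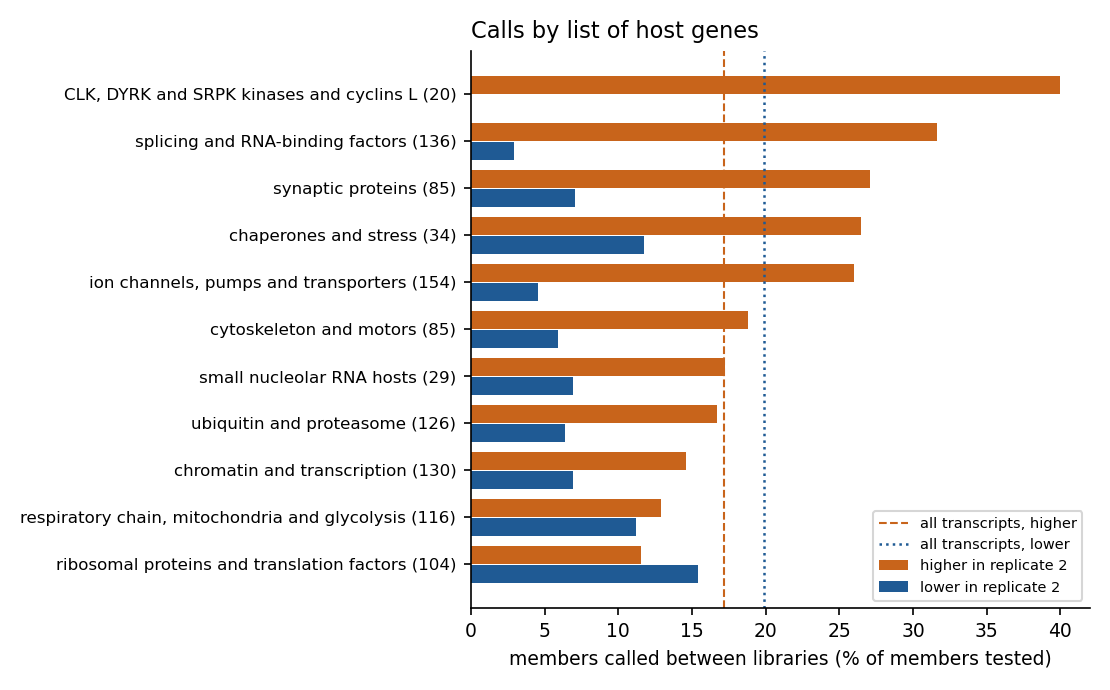
Percentage of tested members called higher (orange) and lower (blue) in replicate 2 for each list of host genes with 10 or more tested members, whose number stands in parentheses. Vertical lines give the shares among all transcripts (17.2% higher, 19.9% lower), and the kinase and splicing lists stand at the top with 40.0% and 31.6% higher.

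Genes that act on such RNAs were called at about the background rate at the gene level, where an exact binomial test on expected counts called 8.88% of 18887 genes higher and 11.4% lower (20.3% together). Of 10 nonsense-mediated decay genes 1 was higher and 1 lower, of 16 nuclear exosome genes and adaptors 2 and 1, and of 11 export genes 2 and 0. The major spliceosome core had 2 higher and 1 lower of 19 and the minor spliceosome 2 and 0 of 10. Nuclear long noncoding RNAs, such as Malat1, Neat1 and Meg3, were higher in replicate 2 in 7 of 7 cases, with a median log2 ratio of 0.36 and a summed level of 4184 and 5605 TPM.

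Markers of cell types differed between the libraries too. Excitatory neuron markers, which define the labelled tissue, were abundant in both (3185 and 2964 TPM summed over 5 genes), and 5 of 5 were lower in replicate 2, with a median log2 ratio of -0.20. Of 4 astrocyte markers 1 was higher and 3 lower, and of 4 interneuron markers none was called. Myelinating oligodendrocyte markers were lower in replicate 2 in 8 of 8 cases (2363 and 1322 TPM) and striatal markers in 6 of 6 (262 and 164 TPM). Choroid plexus markers were higher in 6 of 6 cases (12.4 and 138 TPM) and erythroid markers in 5 of 5 (846 and 1264 TPM). The median choroid plexus marker had 0.46 and 1.575 TPM, and their median log2 ratio was 0.96. Their sum thus rests on the more abundant of them. No marker was at 0 in both libraries. Fewer cells of a type and less RNA per cell cannot be told apart in bulk tissue, and the part of these differences and of nuclear RNA in the members' ratios was not tested. Depth was similar, with 33799274 and 32588971 estimated counts.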

How the data were processed

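The authors deposited, per the file headers, expected counts and TPM with posterior SDs in gene and first transcript tables, and estimated counts and TPM in second transcript tables, on mm10 with GENCODE M21. The interval bounds of the first tables were taken as a score made by the authors, as deposited. No label or header names the tools, settings or strand use: these are not given in the sources. TPM is relative within a library. Members and gene lists were chosen with earlier results of these data known.

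Introns were taken from the GENCODE M21 annotation. Counts were rounded and scaled with edgeR 4.0.16 TMM library sizes (R 4.3.3). A transcript was tested where either library had 10 counts or more (SciPy 1.17.1 exact tests, Benjamini-Hochberg, adjusted p under 0.05). Log2 ratios are of (CPM + 0.5); low transcripts change less on this scale than in TPM, and their SEs cover counting error only, not the assignment of reads to transcripts. Tested on simulated data with 200 of 58224 transcripts changed, the exact binomial test called 38%, 48%, 76% and 82% of those changed 1.5-, 2-, 4- and 8-fold, and 7 of 58024 unchanged ones. The simulated counts carried counting error alone, without spread between libraries or error in assigning reads. The few false calls follow from that setting and give no error rate for these data, where the test called 37.1% of all transcripts. The quasi-likelihood test was not used, since comparing 1 library with 1 leaves no residual degrees of freedom.

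Members were named by rule: the 12 highest mean TPM, the 10 highest shares (protein-coding hosts of 10 TPM or more), the 6 largest ratios and 5 largest share changes in each direction, the 3 nearest the threshold on each side, and the 4 most abundant of each list. Introns of at most 300 bases were printed. The selections over both quantifications, with assignment error and by donor type were chosen after values were seen. Results for some named genes are not reported here.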

Additional observations from a re-analysis of the deposited data

How the results depend on the processing

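At 1 and 5 TPM instead of 2 there were 7862 and 1638 members, with median shares of host TPM of 6.50% and 15.2% instead of 8.93%. At 5 TPM 507 members were called (295 higher, 212 lower, 58.2% of calls higher against 71.2%) and the median log2 ratio was 0.025. The rule applied to the first tables gave 2716 members, and the same members had a median share of 5.74% there. Shares of estimated counts had a median of 3.30%. Against protein-coding transcripts alone the median was 12.6%, and 280 members exceeded 50%. Without members that hold no whole intron, 1626 remained, with a median share of 7.99%, 37 over 50%, 513 called (417 higher, 96 lower) and 517 with a changed share. Among members at 2 TPM in both quantifications, an alternative added after seeing the data, 645 were called and 659 had a changed share. Total counts moved the median log2 ratio to 0.18 and spike-in scaling to 0.19, and the spike-in scaling moved that of all transcripts from 0.01 to 0.10. Calls were then 1066 higher and 224 lower (82.6% higher) and 1106 and 214 (83.8%). Protein-coding transcripts had medians of 0.02 and 0.03 under these scalings. An assumed dispersion of 0.01 left 365 calls (250 higher, 115 lower, where 9.73% and 9.02% of all transcripts were called), one of 0.04 left 61, and counting with assignment error 203 (added after seeing the data). Leaving out 1 replicate gave 5042 to 6389 members, a median share of 8.32% to 9.27% and 107 to 109 members over 50%. For small nucleolar RNA hosts the median was -0.05 in the first tables, against 0.05. Of 57 members whose ratios were checked, 10 calls were lost in the first tables, 9 with spike-ins, 7 with total counts and 5 with TMM over genes, and none with median-of-ratios factors. Srpk1, not called in the second tables (-0.44), was called higher in the first (0.62). No paired analysis was possible because there is 1 group. Depth limits members near 10 counts, such as Tpr with 9.71 and 7.55 counts, to large differences.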

Other observations

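Small RNA genes lay within 57 of the whole introns held by members. Reads of such a gene, on the same strand, can count toward the TPM of the member, and their part was not tested. The noncoding gene Gas5, a host of small nucleolar RNAs that guide methylation of ribosomal RNA, had 7 members. Its most intron-rich one held 8 whole introns, 6 of them with a small RNA gene, and had 8.62 and 9.26 TPM in the second tables and 5.43 and 5.21 TPM in the first. Together the 7 Gas5 members took 25.8% and 36.6% of the gene's TPM. Eif4a2, a translation initiation helicase that hosts small nucleolar RNAs, had 6 members. One held an intron with Snora81 and had 9.63 and 10.8 TPM against 5.88 and 6.05 TPM. Another had 42.9 and 75.6 TPM in the second tables and 3.15 and 3.59 TPM in the first. The Rps20 transcript ENSMUST00000130128.1, which holds the intron next to the one shown, had 239 and 194 TPM against 25.3 and 15.1 TPM.

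The donor sequences ATATCCTT and GTATCCTT, typical of introns removed by the minor spliceosome, began 7 held introns on the transcript strand, 0.326% of all held. Among the members that hold them were those of Tcea2, Lsm5, Mapk8, Mapk11, Snrnp48 and 9930104L06Rik, chosen by this motif after values were seen. Snrnp48 itself encodes a protein of the minor spliceosome, and its member had 2.06 and 2.79 TPM. The Mapk11 member had 3.49 and 5.07 TPM in the second tables and 2.69 and 3.63 TPM in the first. Lsm5, an RNA decay and splicing factor, had 10.4 and 8.44 TPM against 0.540 and 0.130 TPM.

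Most hosts had a single member (1877), 619 had 2 and 342 had 3 or more. The most were the 8 of Snrnp70 and of Ptprs, a neuronal receptor phosphatase. The Snrnp70 members summed to 98.4 and 155 TPM, 33.5% and 39.7% of the gene, and to 49.5% and 58.8% of it in the first tables. The Ptprs members summed to 63.3 and 103 TPM, 11.2% and 15.6% of the gene, and 11.9% and 16.1% in the first. Arpp21, a neuronal RNA-binding phosphoprotein, had 7 members with 204 and 256 TPM. No member of these 3 hosts was called lower by the exact binomial test. Among the 8 hosts with 7 or more members, the summed share was higher in replicate 2 in both quantifications for Ptprs, Snrnp70, Arpp21, Gas5 and Sptan1, which was not tested.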
